A study of Apis mellifera with 2 samples.

Results

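Locus-number genes are honey bee genes that carry only a placeholder made of LOC and a gene number, because no symbol has been given to them. Of 9935 genes with a coding sequence, 9537 were of this kind, and 325 of them were far higher in the hemocyte RNA library of newly emerged adult bees than in that of larvae. The 325 were chosen by the measured values themselves: at least 10 CPM, counts scaled to library size, in the adult library, and adult CPM at least 4 times larval CPM after adding 0.5 counts to each library. Their levels and folds are therefore given as a description, while the number of coding sequences and the position along the chromosomes were not used by the rule. Coding length was not used directly, but CPM rises with length, so the CPM minimum admits long genes more readily. The rule was met by 3.41% of all locus-number genes, against 5.28% of all 398 genes with a symbol. Among the 6579 locus-number genes that reached 10 CPM in the adult library, 4.94% met it. Exchanging the stages gave 270 locus-number genes (2.83%), used below as the larval mirror set. With plain library totals in place of TMM scaling, which takes most genes as equal between libraries, the median log2 fold of all genes shifted by 0.35 and 493 locus-number genes met the rule, all 325 among them.

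Hemocytes are the blood cells of insects. They circulate in the hemolymph, engulf and encapsulate invaders, close wounds and carry the enzymes of melanization, and in insects with complete metamorphosis their makeup changes between larva and adult. A gene can differ between stages in an on-off manner, with almost no RNA at one stage, or in a graded manner, with RNA at both. A gene can also change which of its alternative coding sequences, called isoforms here, holds most of its RNA. The gene table paired none of the 325 with a second name, so no function is given to them, and they are described by level, structure and neighbours.

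The study mapped surface molecules of these cells, and its sequencing part compared hemocytes of Apis mellifera carnica at both stages with 1 library each. For the adult stage, nurse bees less than 1 day of age were taken at intervals of 24 h as they emerged from closed brood kept at 34 °C. For the larval stage, worker larvae 8 days of age, in the fifth instar, were used directly. Hemolymph pooled to a volume of 320 µL gave the cells of each library, from a number of insects that is not stated. RNA with poly(A) tails was sequenced as read pairs of 150 bases. Neither stage was replicated, so nothing was tested, and each difference is one between these 2 libraries, not between the stages. Intervals in brackets are exact 95% intervals of the ratio of adult to larval CPM. They cover counting error only, since each stage had 1 library, and they treat read pairs as independent. Read pairs amplified by PCR are not independent molecules, so the intervals may be too narrow even for counting error.

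Depth was similar, at 16880784 adult and 17657463 larval estimated counts. A level of 3 counts, the limit that a count of 0 allows, equals an adult level of 0.157 CPM and a larval level of 0.192 CPM. The prophenoloxidase gene PPO, whose enzyme precursor hemocytes make for melanization, was the single hemocyte marker available by symbol and stood at 14041 adult and 28019 larval CPM. Of the marker lists of other cell types, the summed level was higher in the adult library for 17 neuronal genes (1250 against 314 CPM, 10 of 17 higher, with the synaptic vesicle gene Syt1 alone at 1094 against 244 CPM and 2 adult and 3 larval members at 0), for 2 oenocyte genes (89.6 against 9.72 CPM, 1 of 2 higher, none at 0) and for 23 cuticle genes (88.5 against 79.5 CPM, 12 of 23 higher, 3 adult and 6 larval members at 0). It was lower there for 7 fat body and hemolymph genes (190 against 6888 CPM, 1 of 7 higher), 7 muscle genes (29.3 against 43.1 CPM, 3 of 7 higher), 12 genes of head and venom glands (111 against 132 CPM, 4 of 12 higher, 4 adult and 2 larval members at 0) and 4 silk gland genes (10.1 against 53.7 CPM, 0 of 4 higher). The part of these cell types in the levels of the 325 genes was not tested. In bulk RNA, more cells of a type and more RNA per cell cannot be told apart.

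The 325 genes together held 1029298 adult counts, 6.10% of the library, and 120288 larval counts, 0.681%. By TPM, which also accounts for length, their shares were 4.60% and 0.479%. Levels in the adult library ran from 10.2 to 3992 CPM with a median of 49.6 CPM, and 98 genes reached 100 CPM and 10 reached 1000 CPM. Those 10 held 36.0% of the group's adult counts. Larval levels of the 325 ran from 0 to 952 CPM with quartiles of 2.30 and 15.4 CPM.

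The gene with the most adult counts was LOC100577456, with an adult level of 3992 CPM and a larval level of 952 CPM, a 4.19-fold difference (4.12 to 4.27). It was also the highest of the group in the larva. LOC408996 stood at 2399 against 218 CPM, a ratio of 11.0 (10.6 to 11.4), and LOC725829 at 2381 against 124 CPM, 19.2-fold (18.3 to 20.1). LOC724211 combined a high adult level with a low larval one, at 2121 against 30.1 CPM, 70.4-fold (64.3 to 77.3). No other gene among the 10 exceeded 20-fold.

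LOC100576132 reached 2184 against 497 CPM (4.39-fold) and LOC408594 1664 against 407 CPM (4.09-fold). LOC726269 reached 1067 against 267 CPM, which placed it at the edge of the rule. LOC408666 stood at 1333 against 166 CPM (8.01-fold), LOC410621 at 1269 against 114 CPM (11.1-fold) and LOC408741 at 1054 against 163 CPM (6.47-fold). Apart from LOC724211, the other 9 stood at 100 larval CPM or more. LOC410171, outside the top 10, was also among the 8 members with the most larval counts, at 534 against 131 CPM (4.06-fold).

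CPM favours long genes, so levels of different genes were compared by TPM. On that scale LOC726269, with a coding length of 606 bases, stood at 2391 adult TPM, and LOC725829 (1179 bases) at 2322 TPM. LOC100577456, first by CPM with 8631 bases, stood at 364 TPM, below LOC408666 at 1471, LOC408741 at 1350 and LOC724211 at 1322 TPM. Singled out after the values were seen, LOC102656085 had the highest adult TPM of all members, at 3084 against 540 larval TPM with a coding length of 345 bases.

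**Figure D1:**
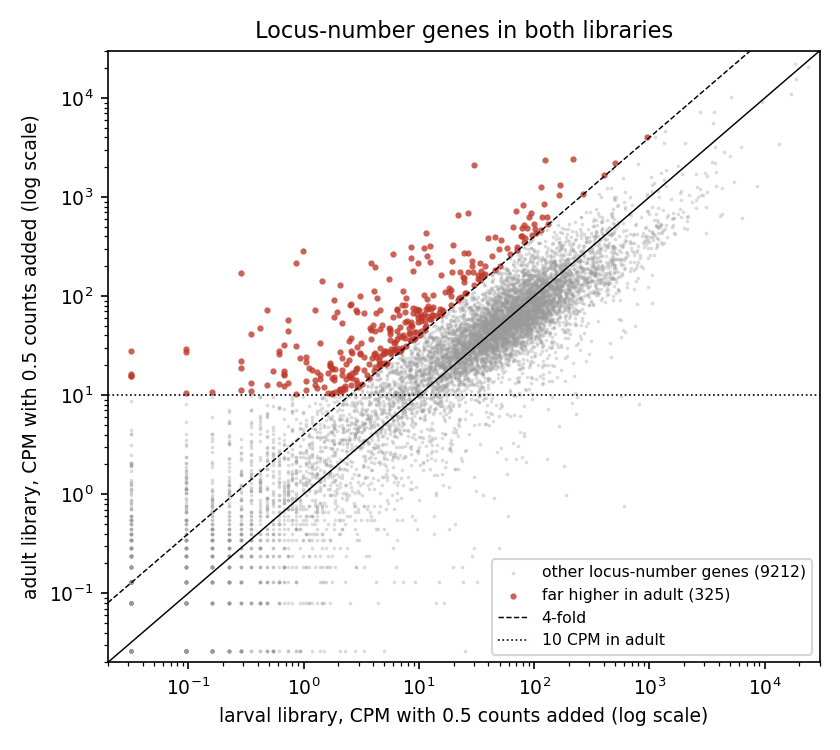
Each point is 1 of 9537 locus-number genes, with larval CPM on the horizontal and adult CPM on the vertical axis, both on log scales with 0.5 counts added. The 325 genes far higher in the adult library lie above the dashed 4-fold line and the dotted 10 CPM line, and most of them stand between 1 and 100 CPM in the larval library.

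Most of the group was graded. Only 8 of the 325 genes (2.46%) had at most 3 larval counts, the class called on-off here, and another 27 had more than 3 counts but under 1 CPM. Larval levels lay between 1 and 10 CPM for 176 genes (54.2%) and at 10 CPM or more for 114 genes (35.1%), of which 16 reached 100 CPM. The fold was between 4 and 8 for 187 genes (57.5%), between 8 and 16 for 67, between 16 and 64 for 52, and 64 or more for 19, with a median of 6.64. The larval mirror set held 8 on-off genes (2.96%), and 144 of its 270 genes (53.3%) stood at 10 CPM or more in the lower library. Its median fold was 6.50.

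**Figure D2:**
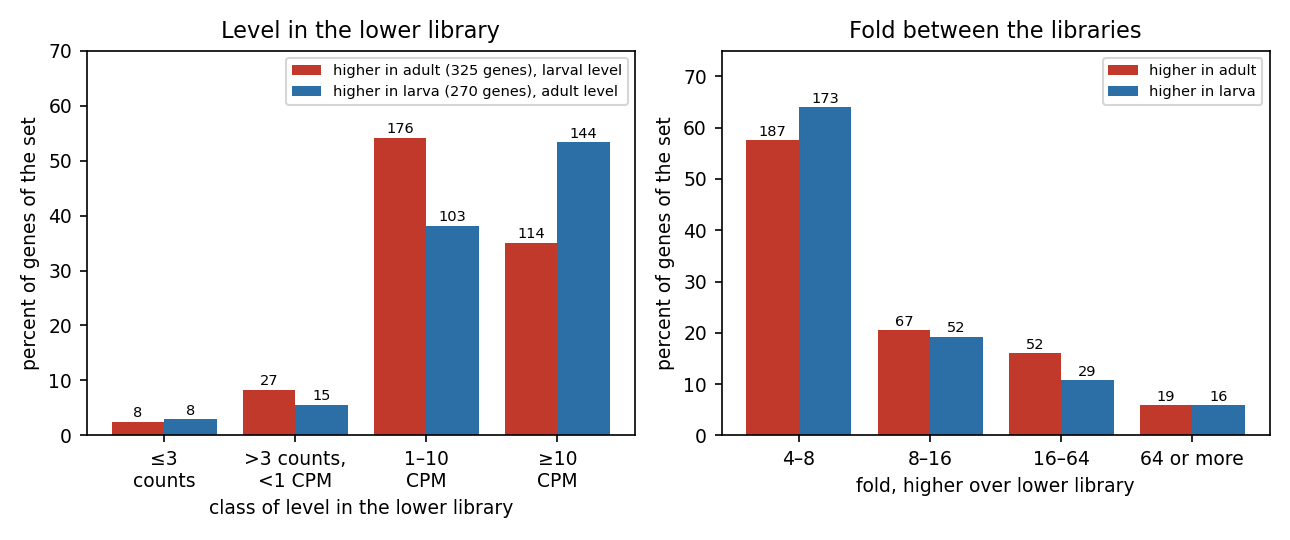
Left, percent of the 325 genes higher in the adult library (red) and of the 270 genes higher in the larval library (blue) by their level in the lower library; right, percent by fold; the number of genes is above each bar. On-off genes, with at most 3 counts, made up 8 genes of each set, and folds of 4 to 8 were the most frequent class in both.

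The on-off genes were of modest level in the adult. LOC413043 had 533 counts in the adult (28.0 CPM) and 0 in the larva. Against a larval floor of 3 counts per library its adult level was at least 146-fold higher, and its exact interval began at 118. LOC100578854 had 310 counts against 0, at least 84.9-fold higher by the same floor, with an exact interval from 68.6. LOC100576797 and LOC410626 each had 296 counts against 0, at least 81.0-fold higher, with an exact interval from 65.5. These were the 4 members with 0 larval counts, and their adult levels were 15.5 to 28.0 CPM.

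The other 4 on-off genes had 1 or 2 larval counts. LOC411978 stood at 554 counts against 1, a ratio of 455 (81.3 to 18000), and LOC551079 at 521 counts against 1, a ratio of 428 (76.4 to 16930). LOC724721 stood at 199 counts against 1 (ratio 163, 29.0 to 6486) and LOC552297 at 203 counts against 2 (ratio 83.3, 22.8 to 693). The intervals are wide because 1 or 2 counts set the denominator.

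Wide folds at higher adult levels were found among genes with a few more larval counts. LOC412818 had 3230 adult counts (170 CPM) and 4 larval counts (0.256 CPM), 589-fold higher (259 to 2435), so its larval counts were 0.124% of its adult counts. LOC410001 had 5461 adult counts (287 CPM) against 15 (0.959 CPM), 289-fold higher (181 to 535). LOC552844 had 4140 adult counts (217 CPM) against 13 (0.831 CPM), 252-fold higher (153 to 492), and its coding sequence of 426 bases placed it at 1656 adult TPM against 6.62 larval TPM. All 3 were still detected in the larva. Adult levels were higher in the classes of higher larval level, as the fold limit in part requires: median adult CPM was 18.6 for the 35 genes under 1 larval CPM, 29.0 for those between 1 and 10, and 181 for those at 10 or more.

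The edges of the rule cut through a continuous range of values. LOC726269 (fold 4.00) and LOC409780 (31.0 against 7.67 CPM, fold 4.02) lay just inside the fold limit, and LOC412748 (245 against 61.2 CPM) and LOC410748 (378 against 94.5 CPM), with folds of 3.997 and 3.99, just outside. By level, LOC410852 and LOC413471, each with 195 adult counts (10.2 CPM), lay just inside, and LOC408908 and LOC100577725, each with 187 (9.82 CPM), just outside. For 70 of the 325 genes the lower end of the exact interval was under 4, and for 255 it was 4 or more.

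Coding length entered the rule only through the CPM minimum. The median over the 325 genes was 1716 bases, with quartiles of 1071 and 2847 bases, against 1425 bases (864 and 2345) over the 6254 other locus-number genes that reached 10 CPM in the adult library. The larval mirror set had a median of 1500 bases and all locus-number genes 1350 bases. Coding sequences of 6000 bases or more were found in 22 of the 325 (6.77%) and in 194 of the 6254 (3.10%), and those under 600 bases in 31 (9.54%) and 818 (13.1%). When the 6579 genes at 10 adult CPM were divided into 4 bins of equal size by coding length, the share that met the rule was 3.71% in the shortest bin, then 4.07%, 5.54% and 6.44% in the longest. Over all genes of the same bins the median log2 fold of adult over larva also climbed, from -0.19 through -0.09 and 0.05 to 0.28, higher in the adult for the longer bins. The part of this shift in the length of the 325 genes was not tested. With TPM in place of CPM the 480 genes past the rule had a median of 1442 bases, against 1272 bases over 5641 others at 10 TPM. TPM was not scaled by TMM, so this change alters the scaling as well as the treatment of length. Over genes with at least 10 counts, the median log2 fold was 0.49 with TPM and 0.02 with TMM. The 62 members that did not pass by TPM all fell under 10 adult TPM and had a median length of 2995.5 bases.

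**Figure D3:**
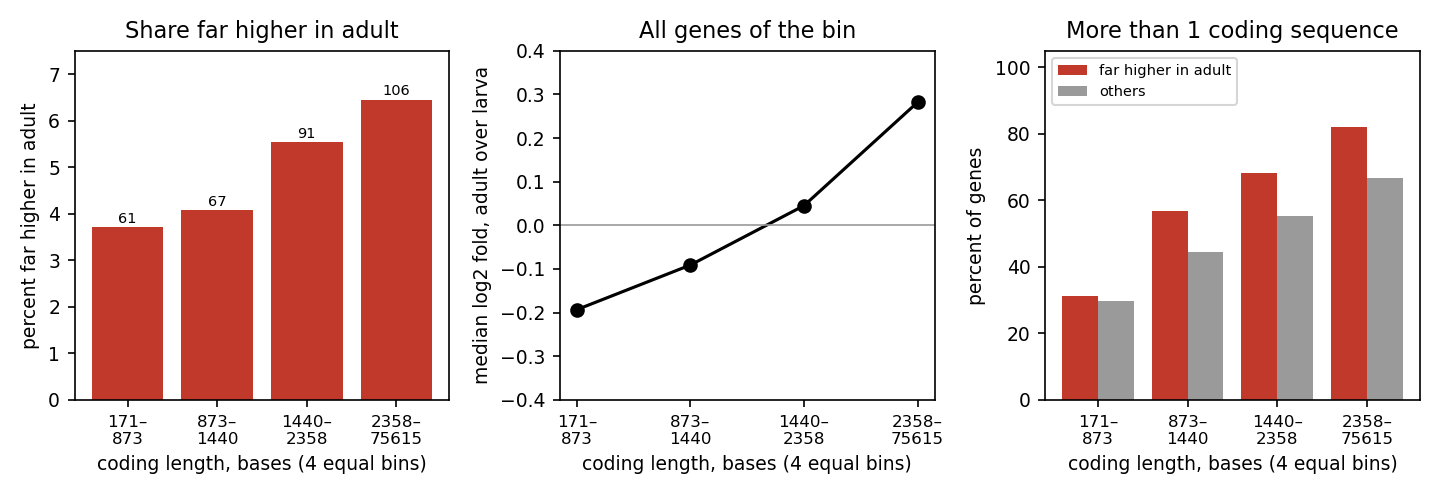
Locus-number genes with at least 10 adult CPM in 4 equal bins of coding length (bases): left, percent that met the rule, with the number of genes above each bar; middle, median log2 fold of adult over larva over all genes of the bin; right, percent with more than 1 deposited coding sequence among genes that met the rule (red) and others (grey). All 3 measures rise with length, from 3.71% to 6.44%, from -0.19 to 0.28 and, for the red bars, from 31.1% to 82.1%.

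The longest member was LOC551259, with a longest coding sequence of 75615 bases. It stood at 58.2 against 12.6 CPM (4.61-fold, 3.97 to 5.40) but at only 1.03 against 0.139 TPM, and 83.3% of its adult counts were assigned to a coding sequence of 40998 bases rather than to the longest. LOC100578705 (16203 bases) stood at 159 against 34.4 CPM (4.61-fold, 4.21 to 5.06). LOC408677 (13440 bases) had the widest difference of the 5 longest, at 662 against 21.8 CPM, 30.3-fold (27.3 to 33.9). Of its adult counts, 89.5% were on 2 equal copies of 10833 bases. LOC411602 (12237 bases) stood at 44.4 against 10.4 CPM (4.25-fold) and LOC413097 (11709 bases) at 203 against 37.5 CPM (5.42-fold). A coding sequence of 10089 bases held 73.0% of adult and 96.6% of larval counts of LOC411602. On the TPM scale with 0.5 TPM added, LOC551259 was 2.40-fold and LOC411602 3.63-fold higher in the adult library, both under the limit of the rule. The added 0.5 TPM lowers both folds, since it is large beside their larval levels. LOC411602 stood at 3.28 against 0.543 TPM before the addition.

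The shortest members had coding sequences of 225 to 330 bases. LOC725074 (225 bases) stood at 41.5 against 8.31 CPM (4.97-fold, 4.14 to 6.05) and, per length, at 964 against 146 TPM. LOC725607 (279 bases) stood at 14.3 against 2.81 CPM (5.03-fold) and LOC113218650 (318 bases) at 61.1 against 5.94 CPM (10.2-fold). The pair with 330 bases were LOC113219239, at 17.8 against 1.15 CPM (15.1-fold, 9.64 to 26.4), and LOC100576840, at 67.3 against 8.82 CPM (7.60-fold). For coding sequences this short, TPM depends strongly on the fragment length used in its estimation.

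The locus numbers themselves differ in age, since longer numbers were handed out later. Numbers of 9 digits were carried by 86 of the 325 genes (26.5%), by 945 of the 6254 other genes at 10 adult CPM (15.1%) and by 48 of the 270 mirror genes (17.8%). Over all locus-number genes, silent ones included, 2389 (25.05%) carried such a number, a share near that of the 325.

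More than 1 coding sequence was deposited for 206 of the 325 genes (63.4%), against 48.9% of the 6254 others at 10 adult CPM and 48.5% of the mirror set. Within the 4 bins of coding length the shares were 31.1% against 29.6% in the shortest, 56.7% against 44.6%, 68.1% against 55.2%, and 82.1% against 66.7% in the longest. The bins use the longest sequence of each gene, so they do not separate length from the number of sequences. Some of these sequences may not be distinct, since 91 of the 325 genes hold copies of equal length that received equal estimates in both libraries, and their sequences were not compared here. LOC100576132, for example, has 11 coding sequences, of which 10 share a length of 2361 bases and the same counts. After such copies were pooled, 176 of the 325 genes (54.2%) had more than 1, against 39.7% of the others and 40.4% of the mirror set.

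How far 1 coding sequence led depended on the pooling, which was chosen after the data were seen. Without it, the leading one held a median of 62.0% of adult counts over the 206 members with several and 63.98% over the 3056 others, and over 90% in 44 of the 206. After pooling, the leading coding sequence held a median of 82.4% of adult counts over the 206 genes, those left with a single one after pooling included, and over 90% in 84 of them (40.8%). Over the 3056 others, the pooled median was 89.2% and 48.9% exceeded 90%. LOC408741 is a clear case, with 99.7% of adult and 98.4% of larval counts on 6 equal copies of a coding sequence of 861 bases, and so is LOC408594, with 92.6% and 94.1% on one of 7662 bases. LOC410621 divided its adult counts between coding sequences of 2427 bases (67.5%) and 2418 bases (32.3%), and both were over 10-fold higher in the adult library, at 11.4-fold and 13.3-fold. Another coding sequence of this gene, of 2430 bases, went the other way, with 50.5 adult and 126 larval counts (2.65 against 8.05 CPM).

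The fold of single coding sequences is given as a description, since the genes were chosen as high in the adult and sequences without adult counts do not enter. In 154 members at least 2 pooled coding sequences had 10 or more adult counts, and in 92 of these (59.7%) every one was 4-fold or more higher in the adult library, while in 62 some were and some were not. Of 482 deposited coding sequences of members at 10 adult CPM, 455 (94.4%) were at 4-fold or more, against 8.29% of 9295 over all locus-number genes, a contrast that the choice of the genes fixes. A further 316 coding sequences at 4-fold or more belonged to locus-number genes that did not meet the rule as a whole. In 21 members a pooled coding sequence with at least 10 larval counts was relatively higher in the larva, but only 4 of them had 100 or more larval counts on it. The folds of adult over larva of these sequences ran from 0.00601 in LOC551259 to 0.982 in LOC408429. Those near 1-fold at low counts cannot be told from equal levels. The share among other genes was not examined.

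In 31 of 192 members with several coding sequences and at least 10 counts in each library (16.1%), the coding sequence with the most counts differed between adult and larva. The share was 11.2% of 3056 other genes at 10 adult CPM and 14.8% of 122 genes of the mirror set. With equal copies pooled it was 33 of 164 (20.1%), against 13.9% of 2482 and 17.6% of 102. Of the 325 genes, 164 had under 100 larval counts, and the part of that low depth was not tested. With at least 50 counts in each library the pooled figures were 22 of 123 (17.9%) against 344 of 2481 (13.9%).

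LOC725926 had the most counts among these genes. Its coding sequence of 1335 bases held 52.6% of adult but 33.3% of larval counts, and that of 1317 bases, 18 bases shorter, held 47.4% and 66.7%. The longer was 9.64-fold and the shorter 4.35-fold higher in the adult library, so both were higher in the adult but by unequal amounts. In LOC724747 a coding sequence of 6183 bases went from 32.6% of adult to 58.1% of larval counts, and one of 6180 bases, 3 bases or 1 codon shorter, from 34.3% to 20.3%. In LOC409783 the leading sequence was that of 3246 bases in the adult (25.4%) and that of 2610 bases in the larva (40.5%). The adult lead was narrow, since that of 2610 bases held 23.4% there, and that of 3246 bases held 30.5% in the larva. LOC726119 changed from 2832 bases (45.4% of adult counts) to 3180 bases (36.7% of larval counts), though the latter already held 34.8% in the adult. LOC410001 had only 15 larval counts, too few to rank 19 coding sequences. LOC408543 no longer changed once its 6 equal copies of 2079 bases were pooled, since they then led in both libraries, with 88.7% of adult and 53.5% of larval counts.

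Other members, picked after their values were seen, showed larger changes. LOC100578705 carries coding sequences of 16203 and 16191 bases, which differ by 12 bases. The longer took 85.7% of adult counts and was 14.1-fold higher in the adult library, at 136 against 9.63 CPM. The shorter took 72.0% of larval counts and stood at 22.8 against 24.8 CPM, a 0.919-fold difference. LOC411110 had all of its 796 adult counts on 1314 bases, while 59.5% of its 88 larval counts were on 1263 bases, which had no adult count. LOC412808 had all 523 adult counts on 2985 bases and all 32 larval counts on 2 equal copies of 2949 bases, 36 bases shorter. The division of reads between sequences that differ by so few bases is an estimate, and its error is not given in the deposited values.

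**Figure D4:**
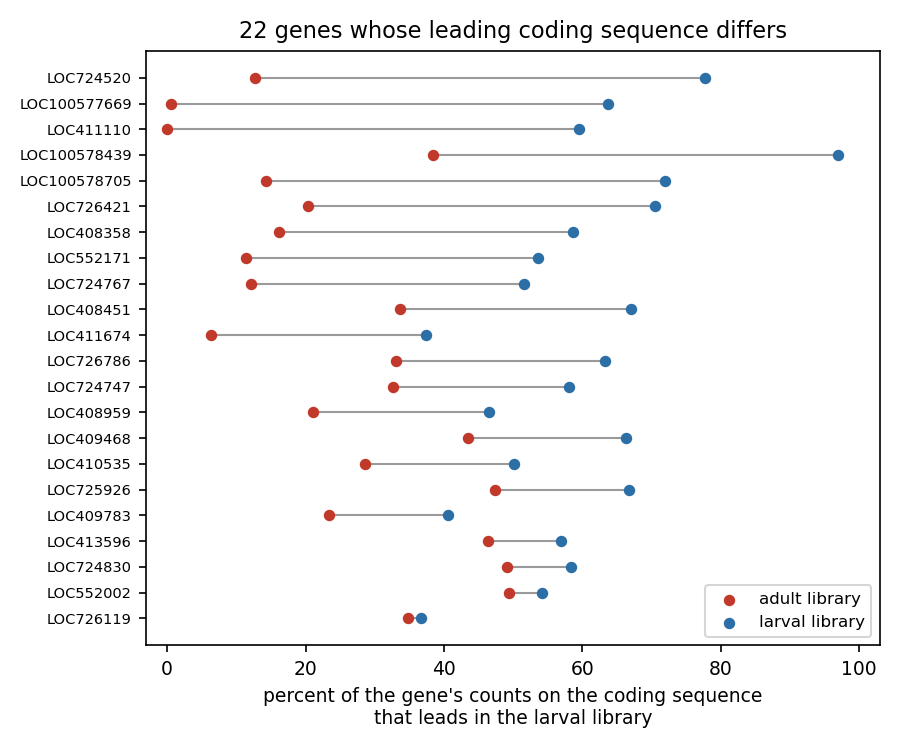
For the 22 genes with at least 50 counts in each library whose leading coding sequence differed after pooling equal copies, the percent of the gene's counts on the sequence that leads in the larva is plotted for the adult (red) and larval library (blue). The gap ranges from 1.93 percentage points in LOC726119 to 65.1 in LOC724520.

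Members lay on all 16 linkage groups, with 2 on unplaced sequences, and made up from 1.93% to 4.97% of the locus-number genes of a linkage group. In gene order, 52 of the 325 (16%) had another member as the directly next gene, in 24 runs: 21 of 2 genes, 2 of 3 and 1 of 4. The share was 13.7% in the mirror set, with 37 genes in 17 runs. Of 645 places directly beside a member, 56 (8.68%) held another member, and 6.53% of places at a distance of 2 genes did. At distances of 3 to 10 genes the share ran from 2.20% to 4.08%, around the 3.27% that members form of all genes. Places beside a member held a gene of the mirror set in 12 of 645 cases (1.86%), against 2.72% of all genes.

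**Figure D5:**
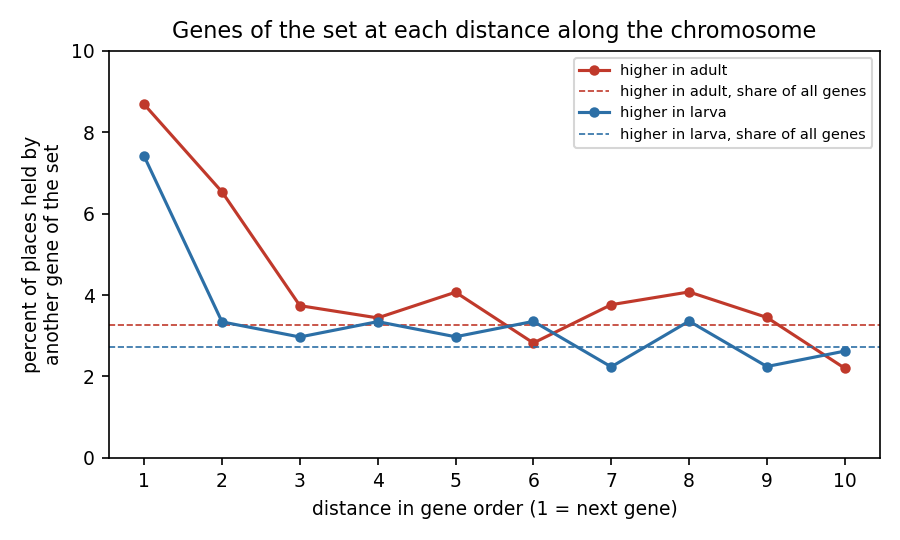
Percent of places at each distance in gene order from a gene of the set that held another gene of the same set, for the 325 genes higher in the adult library (red) and the 270 higher in the larval library (blue), with the share of all genes as dashed lines. The red line stands at 8.68% and 6.53% for the next and the second gene and near its dashed line of 3.27% from the third on.

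The longest run held 4 genes of unequal level. In order, LOC725970 stood at 217 against 9.78 CPM (22.1-fold), LOC408992 at 14.4 against 2.30 CPM (6.18-fold), LOC552749 at 73.5 against 9.46 CPM (7.75-fold) and LOC408991 at 13.4 against 0.703 CPM (18.2-fold). Their coding lengths ran from 1935 to 6102 bases, and no 2 of them were equal in length. LOC408517, LOC726476 and LOC726459 formed the most abundant run of 3, at 847 against 121 CPM (7.01-fold), 721 against 69.7 CPM (10.3-fold) and 13.3 against 0.320 CPM (37.8-fold). The other run of 3 was LOC100576569, at 21.9 against 0.256 CPM (76.4-fold), LOC552844 (252-fold, above) and LOC100577783, at 17.8 against 2.11 CPM (8.35-fold).

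Of the 10 most abundant members, 3 had a member beside them. LOC724211 lay next to LOC410852 (10.2 against 0.831 CPM, 11.9-fold), LOC408666 next to LOC100578654 (270 against 24.4 CPM, 11.0-fold) and LOC408741 next to LOC725474 (30.1 against 7.03 CPM, 4.27-fold). The on-off genes LOC411978 and LOC413043 were direct neighbours as well, with coding lengths of 1491 and 1590 bases. Gene spans overlapped in 7 of the 28 neighbouring pairs, among them LOC410852 with LOC724211, LOC408666 with LOC100578654, and both pairs of the run led by LOC408517. The sources do not say if strand was used in counting. Counts were given to coding sequences, and overlap of the coding sequences themselves was not examined. Where they overlap, reads would be uncertain in origin. Reads divided between genes can leave estimates that are not whole numbers. Those of LOC724211 (40413 and 471) and LOC408666 (25391 and 2601), each with a single coding sequence, were whole.

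Of 14 genes with a symbol directly beside a member, 2 met the same rule, against 21 of all 398 genes with a symbol (5.28%). A count of 2 is too small to compare with that share. LOC408817 (68.7 against 1.92 CPM, 35.2-fold) is next to Vg, the gene of the yolk precursor vitellogenin, which stood at 120 against 0.320 CPM. LOC113219121 (174 against 26.7 CPM, 6.51-fold) is next to Ip3k, an inositol trisphosphate kinase gene, at 1358 against 126 CPM. The 572 flanking genes that were no members had, over the 505 with at least 10 counts, a median log2 fold of 0.34 of adult over larva, against -0.02 over all 8473 such genes outside the group. At least 2-fold and 10 adult CPM was reached by 53 of the 572 (9.27%), close to the 8.19% of all 9610 genes outside the group.

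Reads shared with other genes were looked for only in members with a single coding sequence. Among the 119 with a single coding sequence, 6 (5.04%) had an estimate that was not a whole number at a tolerance of 0.001, the mark of read pairs divided between genes, against 55 of 3198 others at 10 adult CPM (1.72%). For those 6 the level depends on how such reads were divided, and for the 206 members with several coding sequences this was not examined. A division that left whole numbers would not be seen in this way.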

How the data were processed

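The authors deposited estimated counts and TPM per coding sequence for 1 adult and 1 larval hemocyte library, and the submitters' processing notes name kallisto. The release of the tool, its index and the build are not stated. All 23471 coding sequences were matched by protein identifier to RefSeq genes (Amel_HAv3.1), a table that served for symbols and gene order only. Estimated counts were summed per gene and rounded. Library sizes were scaled by TMM (edgeR 4.0.16, R 4.3.3; 8798 genes whose 2 libraries summed to 10 counts or more), with factors of 1.13 (adult) and 0.886 (larva). Folds include 0.5 counts per library, and a count of 0 was replaced by 3 for lower bounds. Where the larval count was 1 to 3, the plain ratio is given. Exact intervals are Clopper-Pearson. Interval and rule were run on simulated independent Poisson counts, as a check of the calculation only. The simulation held no variation between replicates and no error in assigning reads, so it does not bear on either. Neighbours are successive genes with a deposited coding sequence on a linkage group or scaffold of that table, and genes without a named scaffold have none.

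The members and lists were chosen with earlier results of these data known. Named were the members with the most adult or larval counts, at most 3 larval counts, the longest or shortest coding sequences, the longest neighbour runs, the widest folds with a larval count, those at the edges of the rule, and those with the most counts whose leading coding sequence differed. Planned descriptions of protein residues and protein identity were not made, since no protein sequences were used here. Python 3.11.15, numpy 2.4.6, scipy 1.17.1, pandas 2.3.3 and matplotlib 3.10.9 were used, and DESeq2 1.42.0 for size factors.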

Additional observations from a re-analysis of the deposited data

How the results depend on the processing

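The number of members was 493 with plain totals, 1072 at 2-fold and 138 at 8-fold, and 254 to 480 under the other alternatives. With the authors' TPM, 480 genes passed, 263 of them among the 325, and all 62 lost members fell under 10 TPM. All scalings (TMM, plain totals, DESeq2 size factors, TPM) kept 255 members (78.5%). Plain totals shift the median log2 fold of all genes by 0.35. Over genes with at least 10 counts, that median was 0.02 with TMM, 0.37 with plain totals and 0.49 with TPM. The share of adult counts (6.10%) was 9.15% with plain totals, 5.88% with DESeq2 size factors, 10.002% with TPM, 19.7% at 2-fold, 2.58% at 8-fold, 6.16% at 5 CPM, 5.98% at 20 CPM, 5.25% with the interval bound at 4-fold, and 4.996% from the coding sequence with the most counts. The on-off share (2.46%) was 0.746% at 2-fold, 5.80% at 8-fold and 10.8% when under 1 larval CPM counts as off. Median coding length moved to 1441.5 bases with TPM. The share with several coding sequences was 57.5% when only those with at least 10 adult counts count and 54.2% with equal copies pooled, a choice made after seeing the data. The share beside another member was 26.03% at 2-fold, 21.2% at 5 CPM and 24.6% when 1 gene may lie between. Such a share rises with the size of the set, 1072 genes at 2-fold and 397 at 5 CPM, and with the number of places. No background share was computed for these settings, so they do not show closer grouping. Members with a different leading coding sequence numbered 20 at 50 counts per library.

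Of 196 values of the 49 named members under other scalings or a single coding sequence, 83 left their counting interval and none changed direction. With plain totals and DESeq2 size factors no direction could change, since members were chosen at 4-fold or more. Those scalings shift all log2 folds alike, by 0.35 and -0.02. From the coding sequence with the most counts, LOC408543 was 1.53-fold, LOC411602 3.22-fold, LOC724747 3.36-fold and LOC100576132 3.95-fold higher in the adult library. For LOC408543 and LOC100576132 that sequence held only 11.3% and 23.0% of adult counts, since equal copies divided the rest. Pooled, those copies held 88.7% and 77.0% and were 10.5-fold and 4.55-fold higher in the adult library. LOC726269 was 3.95-fold higher with DESeq2 size factors. The hydropathy alternatives were not run.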
